A study of Arabidopsis thaliana with 30 samples.

Results

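The very long genes described here are Arabidopsis genes whose summed exon length was at least 7000 bases and whose mean level over the 30 libraries was at least 1 CPM (counts scaled to the library total). The length is the value that the count table gives for each gene. Of 32833 genes counted, 67 were that long, and 66 of them reached the expression limit. The gene left out, AT1G72270, had a length of 7385 bases and a mean of 0.256 CPM. The 66 genes are compared with the 19003 remaining genes at 1 CPM or more. Because mean CPM chose the genes, their levels are a description and are not tested. Just inside the length limit lay EMB2016 with 7041 bases, AT3G24880 with 7062 bases and MBD9 with 7073 bases. Just outside lay AT3G55160 with 6975 bases, GSL03 with 6993 bases and, closest to the limit, SWEETIE.

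Poly(A)-enriched RNA was sequenced from whole 5-day-old seedlings kept for 3 h in liquid medium without ABA (mock) or with 50 µM ABA, the stress hormone abscisic acid. There were 10 groups of 3 replicates, the 5 genotypes each under both treatments. The genotypes were the dxo1 mutant, dxo1/cDXO1 (dxo1 carrying the C-terminal catalytic part of DXO1, labelled DXO1-C/dxo1), rnmt1-3 (labelled rnmt1), dxo1/NTE (dxo1 carrying the N-terminal extension of DXO1, labelled DXO1-N/dxo1) and the wild type Col-0 (WT). Both transgenes were driven by the DXO1 promoter, and dxo1, dxo1/cDXO1 and dxo1/NTE all carry the dxo1 mutation. The first 3 genotypes are named the capping mutants below. In whole seedlings, fewer cells that express a gene and less of its RNA per cell cannot be told apart.

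The m7G cap is a methylated guanosine at the start of an mRNA, which protects the transcript and recruits factors for splicing, export and translation. In Arabidopsis the cap methyltransferase RNMT1 adds the methyl group and is activated by the N-terminal extension of DXO1, whose catalytic part removes NAD caps. Very long transcripts encode some of the largest proteins of the cell, among them ubiquitin ligases, chromatin remodelling ATPases, DNA polymerases, checkpoint kinases and scaffolds of membrane traffic. Many of these genes are essential for embryo or cell growth.

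The genes differed from the remaining genes in structure as well as in length. Their median length was 8116 bases, against 1801 bases for the remaining genes that the annotation holds. The longest transcript had a median of 23 exons, against 4, and the gene body had a median span of 12196 bases, against 2434 bases. The median protein had 2456 residues, against 390. Per library the members drew a median of 79.8 CPM, against 19.4 CPM, but per unit of length they were not more abundant, with a median of 14.3 TPM, which is scaled for gene length as well as depth, against 17.3 TPM. The higher counts matter for the tests below, since a mean of 1594 counts per library for the median member, against 387 for the median remaining gene, gives a smaller counting error.

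The longest member was MDN1 (AT1G67120, midasin, a ribosome assembly ATPase), with 16614 bases of exon at chromosome 1, 25069428 to 25095638 of TAIR10.1. BIG (AT3G02260, needed for auxin transport) followed with 15766 bases. The next were the RING finger gene AT5G23110 with 14494 bases, the pleckstrin homology domain gene AT4G17140 with 13366 bases and the lipid-binding family gene AT1G48090 with 13296 bases. The member with most counts was GLT1 (AT5G53460, NADH-dependent glutamate synthase, an enzyme of ammonium assimilation), at a mean of 1705 CPM and 370.5 TPM. Next by CPM were AT5G40450, annotated as A-kinase anchor-like, at 374 CPM and SUS2, a core splicing factor, at 362 CPM. All chromosomes held members, with 21, 13, 10, 12 and 10 on chromosomes 1 to 5.

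The length of 65 of the 66 members equalled the summed exons of the RefSeq annotation. A summed length joins all isoforms, and for 5 members no annotated transcript reached 7000 bases. These were AT2G24755 (longest transcript 4946 bases), PHOT2 (6518 bases), AT2G42270 (6906 bases), AT3G24880 (6918 bases) and DME (6963 bases). Several counts are uncertain because exon sequence is shared with another gene. As a check, every 75-base window of a member's exons was searched for in other genes, and 69.7% of the windows of AT3G24880 occurred in its neighbour AT3G24870. For AT2G24755, a non-coding RNA, 85.9% of the windows lay in AT2G24750. PHOT2 shared 41.7% of its windows with AT5G58150, which overlaps it on the opposite strand, and POL2A shared 19.8% with AT1G08250 in the same arrangement. Whether the counting used strand is not given in the sources used here, so reads from such pairs cannot be told apart.

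The sequence upstream of AT5G40450 is shown because this gene had the largest response to ABA of the set and was lower after ABA in all genotypes. The run holds the 250 bases before the annotated gene start (RefSeq, TAIR10.1), 5′ to 3′ on the strand of the gene. The core of the ABA-responsive element, ACGTG, was searched for on both strands and would be in capitals.
AT5G40450 (chr5:16195889-16196138, minus strand): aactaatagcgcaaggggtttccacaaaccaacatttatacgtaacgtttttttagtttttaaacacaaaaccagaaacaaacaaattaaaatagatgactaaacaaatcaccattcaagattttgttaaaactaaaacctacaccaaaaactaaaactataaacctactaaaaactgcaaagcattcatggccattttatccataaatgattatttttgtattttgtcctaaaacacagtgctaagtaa
The window did not hold the letters. Over all 66 members 9 windows held them (13.6%), against 4511 of the 18955 remaining genes (23.8%) and 7090 of all 32545 genes on the 5 chromosomes (21.8%). The motif in a window is a description of its letters.

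The libraries held 17961410 to 23249299 counts on genes, with a median of 19825453. DXO1 had 17.3 to 23.7 CPM in the 6 dxo1 libraries, 212 to 275 CPM in dxo1/cDXO1, 222 to 274 CPM in dxo1/NTE and 42.1 to 48.4 CPM in rnmt1-3, against 40.3 to 48.3 CPM in WT. RNMT1 had 14.1 to 16.3 CPM in rnmt1-3, 15.2 to 21.45 CPM in dxo1, 14.7 to 17.5 CPM in dxo1/cDXO1 and 18.1 to 60.3 CPM in dxo1/NTE (median 25.6), against 16.4 to 21.5 CPM in WT. Its transcript level thus separated rnmt1-3 from WT only just, and at least 1 dxo1/NTE library lay far above all WT libraries. All 5 shoot and all 5 root marker genes reached 1 CPM, 1 of 3 flower markers did and neither of the 2 seed markers did. The summed shoot markers lay between 19472 and 25889 CPM and the summed root markers between 55.2 and 128 CPM. In mock-treated seedlings the root markers summed to 118 to 128 CPM in dxo1, 106 to 126 CPM in dxo1/cDXO1, 79.5 to 80.3 CPM in rnmt1-3 and 102 to 117 CPM in dxo1/NTE, against 55.2, 105.6 and 96.5 CPM in WT replicates 1, 2 and 3. The summed shoot markers were 19472 to 20106 CPM in dxo1, against 20973 to 25889 CPM in WT. The part of these organ markers in the results was not tested.

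The 66 genes together took a smaller share of all counts in the capping mutants than in WT. Under mock conditions the share was 0.828%, 0.830% and 0.874% in dxo1, 0.720%, 0.824% and 0.867% in dxo1/cDXO1, and 0.674%, 0.794% and 0.848% in rnmt1-3. It was 0.927%, 1.086% and 0.909% in dxo1/NTE and 0.961%, 0.923% and 0.920% in WT. Every library of the capping mutants lay below every WT library, and dxo1/NTE overlapped with WT. Mean shares were 0.844% ± 0.026 for dxo1, 0.804% ± 0.075 for dxo1/cDXO1, 0.772% ± 0.089 for rnmt1-3 and 0.974% ± 0.097 for dxo1/NTE, against 0.935% ± 0.023 for WT (SD, n = 3 each). With 3 libraries against 3 an exact two-sided permutation test cannot go below 0.1, so the share was not tested. GLT1 alone made up a large part of these counts, and its level was highest in WT replicate 1. Without GLT1 the means were 0.657%, 0.614%, 0.596% and 0.770% in dxo1, dxo1/cDXO1, rnmt1-3 and dxo1/NTE, against 0.720% ± 0.0048 in WT.

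Under mock the mean of dxo1/NTE lay above that of WT, but only its replicate 2, at 1.086%, exceeded every WT library. After ABA the capping mutants again had lower mean shares than WT, and so did dxo1/NTE. The means were 0.791% ± 0.022 for dxo1, 0.744% ± 0.047 for dxo1/cDXO1, 0.739% ± 0.027 for rnmt1-3 and 0.789% ± 0.029 for dxo1/NTE, against 0.857% ± 0.044 for WT. The WT libraries held 0.806%, 0.882% and 0.884%, and WT replicate 1 lay inside the range of dxo1 and dxo1/NTE.

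**Figure D1:**
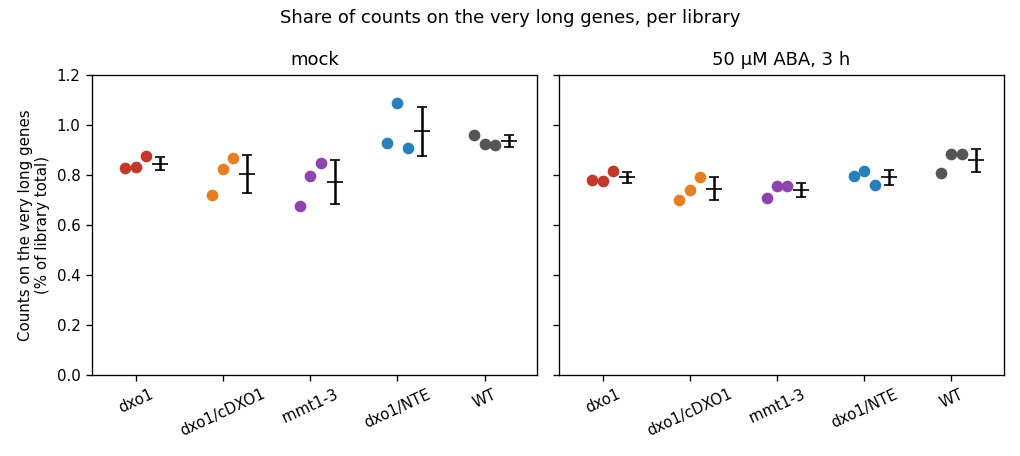
Counts on the 66 very long genes as a percentage of each library's total, by genotype, for mock (left panel) and 50 µM ABA (right panel). Points are libraries and bars are the mean ± SD of 3; under mock the capping mutants sit between 0.674% and 0.874%, below the WT libraries at 0.920% to 0.961%.

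Gene by gene, the members were lower in the capping mutants more often than higher. Each comparison was fitted with edgeR's quasi-likelihood test over all genes, and a gene is called changed at a Benjamini-Hochberg adjusted p under 0.05. In mock dxo1, 18 members were lower and 4 higher than in WT (27.3% and 6.06% of 66), while 11.8% of all tested genes were lower and 12.96% higher. In mock dxo1/cDXO1, 22 were lower and 1 higher (33.3% and 1.52%), against 11.4% and 12.1% of all tested genes. In mock rnmt1-3, 21 were lower and 1 higher (31.8% and 1.52%), against 8.76% and 10.1% of all tested genes. The lower share of the members was thus above that of all genes in each comparison, and the higher share below it. The 3 comparisons use the same WT libraries.

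In mock dxo1/NTE no member was lower and 1 was higher, where 0.755% of all tested genes were lower and 0.850% higher. DESeq2 called 2 members in this comparison, and 8 had an unadjusted p under 0.05 in edgeR.

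For most members the changes were small. The lower and upper quartiles of the log2 fold change were -0.31 and 0.00 in mock dxo1, -0.38 and -0.06 in dxo1/cDXO1, and -0.40 and -0.14 in rnmt1-3. Under mock conditions the members had a median log2 fold change of -0.18 for dxo1, -0.22 for dxo1/cDXO1 and -0.27 for rnmt1-3, with 0.04 for dxo1/NTE, while the remaining genes had medians of -0.00, -0.02, -0.01 and -0.00 in the same comparisons. A negative fold change was found for 49, 52, 59 and 29 of the 66 members in dxo1, dxo1/cDXO1, rnmt1-3 and dxo1/NTE. The median size of the change, without its sign, was 0.23, 0.25 and 0.29 for the members in dxo1, dxo1/cDXO1 and rnmt1-3, and 0.29, 0.29 and 0.27 for the remaining genes. It was thus smaller for the members in dxo1 and dxo1/cDXO1 and slightly larger in rnmt1-3. The remaining genes had fewer counts and so a larger counting error, and the part of this in their sizes was not tested.

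The counts and the excess of lower calls under mock rest on single libraries. Without replicate 1, 2 or 3 of the mutant, 3, 5 and 10 members were called in dxo1, where 11.3%, 11.7% and 13.4% of all tested genes were, in either direction. They split into 2 higher and 1 lower, 2 and 3, and 2 and 8. In dxo1/cDXO1 they were 2, 3 and 13, against 10.6%, 10.6% and 13.9% of all genes, with 1 higher in each fit and 1, 2 and 12 lower. In rnmt1-3 they were 2, 4 and 9, against 7.57%, 7.15% and 8.91%, with 1 higher in each fit and 1, 3 and 8 lower. Without replicate 1 or 2 of the mutant the calls among the members were thus no more frequent than among all genes in dxo1, dxo1/cDXO1 and rnmt1-3, and without replicate 1 they no longer leaned to the lower side.

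Mock WT replicate 1 stood apart in its genes under 1000 bases, whose median log2 ratio to mean WT mock was -0.08, with 0.06 and 0.04 in WT replicates 2 and 3. Without it the calls numbered 35 in dxo1, 34 in dxo1/cDXO1 and 35 in rnmt1-3, but calls grew over all genes as well, to 43.7%, 40.1% and 36.8%. Without WT replicate 2 or 3 they were 12 and 14 in dxo1/cDXO1, against 16.2% and 16.9% of all genes, and 10 and 7 in rnmt1-3, against 11.7% and 12.8%. In dxo1 they were 16 with either left out, against 17.8% and 18.1%. The single called member of dxo1/NTE was joined by 2 more without WT replicate 1, where 14.1% of all genes were called. The median fold change of the members stayed negative in all of these fits of the capping mutants.

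Seen library by library, the shift was present in each mutant library. The median log2 ratio of the members to mean WT mock was -0.18, -0.22 and -0.15 in dxo1, -0.32, -0.20 and -0.13 in dxo1/cDXO1, and -0.47, -0.23 and -0.16 in rnmt1-3. It was -0.02, 0.15 and -0.06 in dxo1/NTE and 0.04, -0.03 and -0.02 in WT itself. Replicate 1 of rnmt1-3 was the lowest library, and without it the median fold change of that genotype was -0.20 on the log2 scale.

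The very long genes were the end of a graded relation with length among the tested genes at a mean of 1 CPM or more. Between mock dxo1 and WT, the median log2 fold change was 0.15 for genes under 1000 bases, 0.03 from 1000 up to 2000, -0.02 from 2000 up to 3000, -0.10 from 3000 up to 5000, -0.18 from 5000 up to 7000 and -0.18 at 7000 or more. The share of genes called lower grew along the same classes, with 8.01%, 11.4%, 13.1%, 16.9%, 25.6% and 27.3%. The share called higher was 19.6%, 15.6%, 9.98%, 6.60%, 4.13% and 6.06%. In dxo1 the top 2 classes had the same median to 2 digits, so its medians showed no step at 7000 bases. The same medians were 0.16, 0.02, -0.05, -0.12, -0.21 and -0.22 in dxo1/cDXO1 and 0.13, 0.03, -0.05, -0.15, -0.23 and -0.27 in rnmt1-3. In dxo1/NTE the medians stayed between -0.01 and 0.04. The share called lower in the top 2 classes was 27.7% and 33.3% in dxo1/cDXO1, and 20.2% and 31.8% in rnmt1-3. Median counts also grew along the classes, 198 for the shortest and 1594 for the longest, and the part of this depth in the length relation was not tested. Mock libraries of 1 genotype also differed along the classes. Against mean WT mock, the shortest and longest class had -0.02 and 0.15 in dxo1/NTE replicate 2, and 0.09 and -0.06 in its replicate 3. They had 0.21 and -0.47 in rnmt1-3 replicate 1, and 0.12 and -0.16 in its replicate 3. The part of such differences between libraries was not tested.

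After ABA the relation was flatter in the capping mutants and was also seen in dxo1/NTE, where its long end rested largely on 1 library. The median of the shortest class was 0.08 for dxo1, 0.13 for dxo1/cDXO1 and 0.13 for rnmt1-3, and that of the longest was -0.13, -0.15 and -0.16. In dxo1/NTE the medians were 0.09, 0.01, -0.02, -0.06, -0.07 and -0.09, in order of length. Against mean WT mock, the longest class had -0.04, -0.005 and -0.17 in dxo1/NTE replicates 1, 2 and 3 after ABA. ABA-treated WT had -0.05, 0.01 and 0.02. The shortest class had 0.12, 0.11 and 0.18 in dxo1/NTE and 0.03, 0.02 and 0.02 in WT. Without dxo1/NTE replicate 3 the median of the longest class against ABA-treated WT was -0.04.

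**Figure D2:**
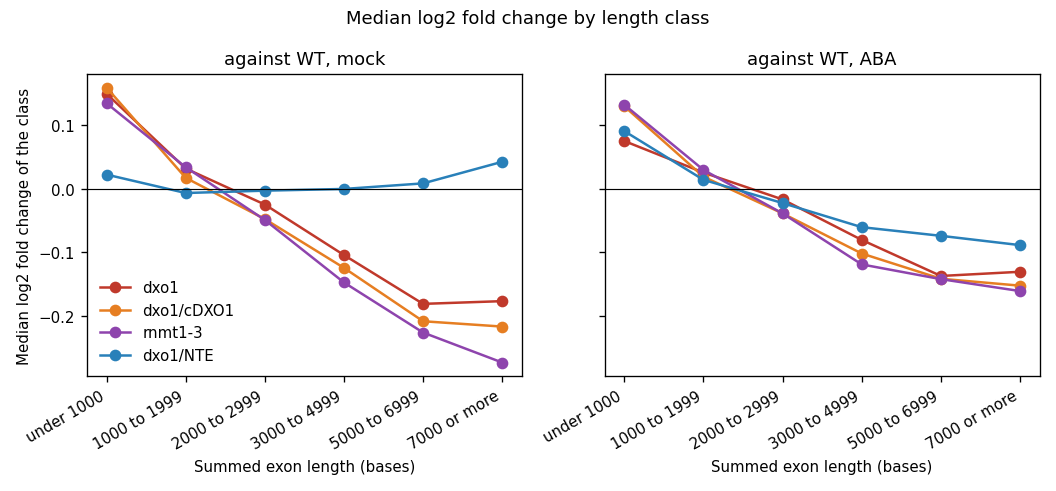
Median log2 fold change against WT of the tested genes at a mean of 1 CPM or more in 6 classes of summed exon length, for mock (left) and ABA (right), with a line for each genotype. Under mock the lines of the capping mutants run downward with length to -0.18, -0.22 and -0.27 at 7000 bases or more, while dxo1/NTE stays at 0.04.

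Proteins of membrane traffic and membranes formed the largest role group, with 14 members. In mock dxo1 8 of the 14 were lower and 1 higher, in dxo1/cDXO1 8 were lower and 0 higher, and in rnmt1-3 9 were lower and 0 higher, with median log2 fold changes of -0.37, -0.39 and -0.40. Of all tested genes 11.8%, 11.4% and 8.76% were lower in these 3 comparisons, and 12.96%, 12.1% and 10.1% higher. No member of the membrane group was called in mock dxo1/NTE, where the median was 0.03. AT4G39420, annotated as spatacsin carboxy-terminus protein, had 55.35, 55.45 and 54.5 CPM in mock dxo1, 44.9, 54.5 and 60.3 CPM in dxo1/cDXO1, 47.0, 54.8 and 54.3 CPM in rnmt1-3 and 75.02, 90.8 and 82.5 CPM in dxo1/NTE, against 76.7, 73.7 and 76.0 CPM in WT. The capping mutants did not overlap with WT, and dxo1/NTE did. Its log2 fold change was -0.48 ± 0.08, -0.48 ± 0.11 and -0.51 ± 0.10 in dxo1, dxo1/cDXO1 and rnmt1-3 (edgeR adjusted p = 0.0046, 0.017 and 0.0091).

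AT1G58230, annotated as a binding protein, changed by -0.45, -0.54 and -0.40 in the same order, and AT4G17140 by -0.44, -0.42 and -0.49. GRV2, a DnaJ-domain protein of endosome and vacuole traffic, changed by -0.36, -0.50 and -0.42. All 9 of these log2 values passed the test with all libraries in the fit. Without replicate 1 of the mutant, only 1 very long gene was called lower in each of mock dxo1, dxo1/cDXO1 and rnmt1-3. Most of these 9 calls were thus lost in those fits. The same limit applies to the lower calls under mock of the genes named in every role group. SPI, a BEACH protein of cell shape, passed the test in rnmt1-3 alone, at -0.42, with -0.29 and -0.36 in dxo1 and dxo1/cDXO1. AT4G02660, another BEACH and WD40 protein, went the other way in dxo1, with 16.2, 14.8 and 16.1 CPM, against 8.56, 10.1 and 9.30 CPM in WT. This was a log2 change of 0.73 ± 0.12 for dxo1 (edgeR adjusted p = 0.0050), next to 0.40, 0.27 and 0.69 in dxo1/cDXO1, rnmt1-3 and dxo1/NTE, where it was not called.

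Of the 9 chromatin genes 2, 3 and 3 were lower in mock dxo1, dxo1/cDXO1 and rnmt1-3, and none was higher. Of all tested genes 11.8%, 11.4% and 8.76% were lower. DME, a DNA glycosylase that removes methylated cytosine, had 72.4, 72.5 and 73.1 CPM in dxo1, 60.15, 66.2 and 65.6 CPM in dxo1/cDXO1, 64.8, 67.9 and 72.7 CPM in rnmt1-3 and 89.7, 98.5 and 88.1 CPM in dxo1/NTE, against 84.35, 97.8 and 107 CPM in WT. Again the capping mutants lay below WT and dxo1/NTE within it. The log2 fold changes were -0.43 ± 0.10, -0.56 ± 0.10 and -0.47 ± 0.10 in the capping mutants (edgeR adjusted p = 0.015, 0.0063 and 0.017). BRM, the ATPase of an SWI/SNF remodelling complex, changed by -0.29, -0.38 and -0.42, all called. AT2G17930, a FAT-domain member of the phosphatidylinositol kinase family, changed by -0.40 and -0.46 in dxo1/cDXO1 and rnmt1-3, with -0.27 and adjusted p = 0.051 in dxo1.

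**Figure D3:**
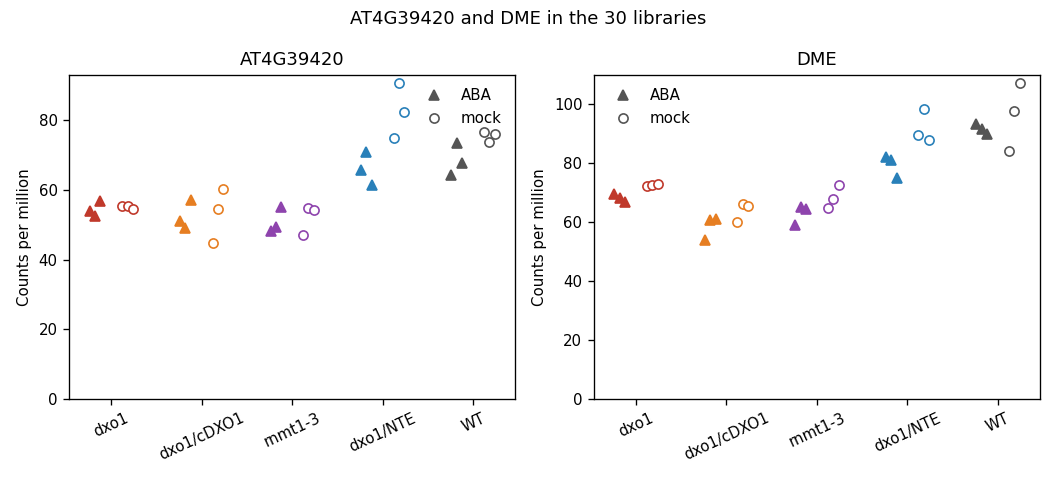
CPM of AT4G39420 (left) and DME (right) in each library by genotype, with filled triangles for ABA and open circles for mock. Under mock AT4G39420 lies between 44.9 and 60.3 CPM in the capping mutants and between 73.7 and 76.7 CPM in WT, and DME between 60.15 and 73.1 CPM in the capping mutants and between 84.35 and 107 CPM in WT.

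The 3 cytoskeleton genes had 2, 3 and 2 lower calls in dxo1, dxo1/cDXO1 and rnmt1-3, against 11.8%, 11.4% and 8.76% of all tested genes. CSI1 and CSI3, which tie cellulose synthase complexes to microtubules, changed by -0.34 and -0.54 in dxo1, -0.36 and -0.57 in dxo1/cDXO1 and -0.40 and -0.33 in rnmt1-3, of which the last value was not called. POK2, a kinesin that guides the division plane, was lower in dxo1/cDXO1 and rnmt1-3 by -0.59 and -0.51, and changed by -0.28 in dxo1 without passing. Among the 4 growth genes SAB, needed for directed cell expansion, was lower in all 3, by -0.44, -0.47 and -0.46. Its libraries had 70.0, 69.0 and 70.7 CPM in dxo1, 56.4, 68.5 and 73.2 CPM in dxo1/cDXO1 and 59.5, 66.5 and 73.6 CPM in rnmt1-3, against 98.6, 92.05 and 88.6 CPM in WT, with no overlap. KIP, its homologue, was lower in rnmt1-3 only by the test, at -0.51, with -0.16 and -0.21 in dxo1 and dxo1/cDXO1. Whether these genotypes differ for KIP was not tested.

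Of the 3 large kinases of growth and genome surveillance, none was called in mock dxo1 and 2 each were lower in dxo1/cDXO1 and rnmt1-3. In these 2 genotypes 11.4% and 8.76% of all tested genes were lower. ATM, the double-strand break kinase, changed by -0.44 and -0.59 and TOR, the nutrient kinase, by -0.30 and -0.36, with -0.33 and -0.18 in dxo1. ATR, the replication stress kinase, was not called under mock, and after ABA it was higher in dxo1 by 0.53 ± 0.15 (edgeR adjusted p = 0.011). Of the 3 ubiquitin genes, BIG and UPL1 were lower in dxo1 by -0.36 and -0.31 and in dxo1/cDXO1 by -0.39 and -0.33. In rnmt1-3 their values of -0.37 and -0.39 were no smaller but missed the threshold, with adjusted p of 0.078 and 0.065 in edgeR. Among the other genes, emb2410, a component of protein import into plastids, was lower in all 3 by -0.39, -0.44 and -0.57, and the WD-40 protein AT2G46560 by -0.46, -0.45 and -0.48.

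The genes of RNA processing, translation and transcription had no lower call. None of the 5 RNA processing, 3 translation and 2 transcription genes was lower in any mock comparison of the capping mutants with WT. In these comparisons 8.76% to 11.8% of all tested genes were lower. The group medians lay between -0.10 and 0.00 for RNA processing, between -0.06 and 0.15 for translation and between -0.07 and 0.01 for transcription. The Mediator subunits MED12 and MED13 stayed between -0.09 and 0.03. MDN1, the longest gene of all, had 118.7, 105.6 and 112 CPM in mock dxo1, 86.6, 90.0 and 100.3 CPM in dxo1/cDXO1 and 66.35, 76.9 and 91.3 CPM in rnmt1-3, against 118.6, 94.4 and 101.7 CPM in WT. Its log2 fold change was 0.07 ± 0.12 for dxo1, -0.16 ± 0.12 for dxo1/cDXO1 and -0.40 ± 0.14 for rnmt1-3, with no call, and only rnmt1-3 did not overlap with WT. No test of 1 role against another was made.

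Among the few members on the higher side was AT4G38780, a low-expressed second copy of the splicing factor SUS2. It had 7.14, 7.06 and 8.585 CPM in mock dxo1, against 2.98, 3.68 and 5.01 CPM in WT, with no overlap. This was a log2 change of 0.94 ± 0.22 for dxo1 (edgeR adjusted p = 0.016), next to 0.84, 0.65 and 0.87 in dxo1/cDXO1, rnmt1-3 and dxo1/NTE, none of which passed. POL2A, the catalytic subunit of DNA polymerase epsilon, was also higher in dxo1, by 0.29 ± 0.09 (adjusted p = 0.048), with the caution on its overlapping neighbour given above.

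The role lists also held 24 genes that are not members, because they were shorter or lower than the limits, and 23 of them could be tested, all with at least 5053 bases of exon. In mock dxo1, dxo1/cDXO1 and rnmt1-3, 4, 2 and 5 of these 23 were lower and 0 higher. Of all tested genes 11.8%, 11.4% and 8.76% were lower and 12.96%, 12.1% and 10.1% higher. The median log2 fold changes of the 23 were -0.06, -0.07 and -0.21.

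**Figure D4:**
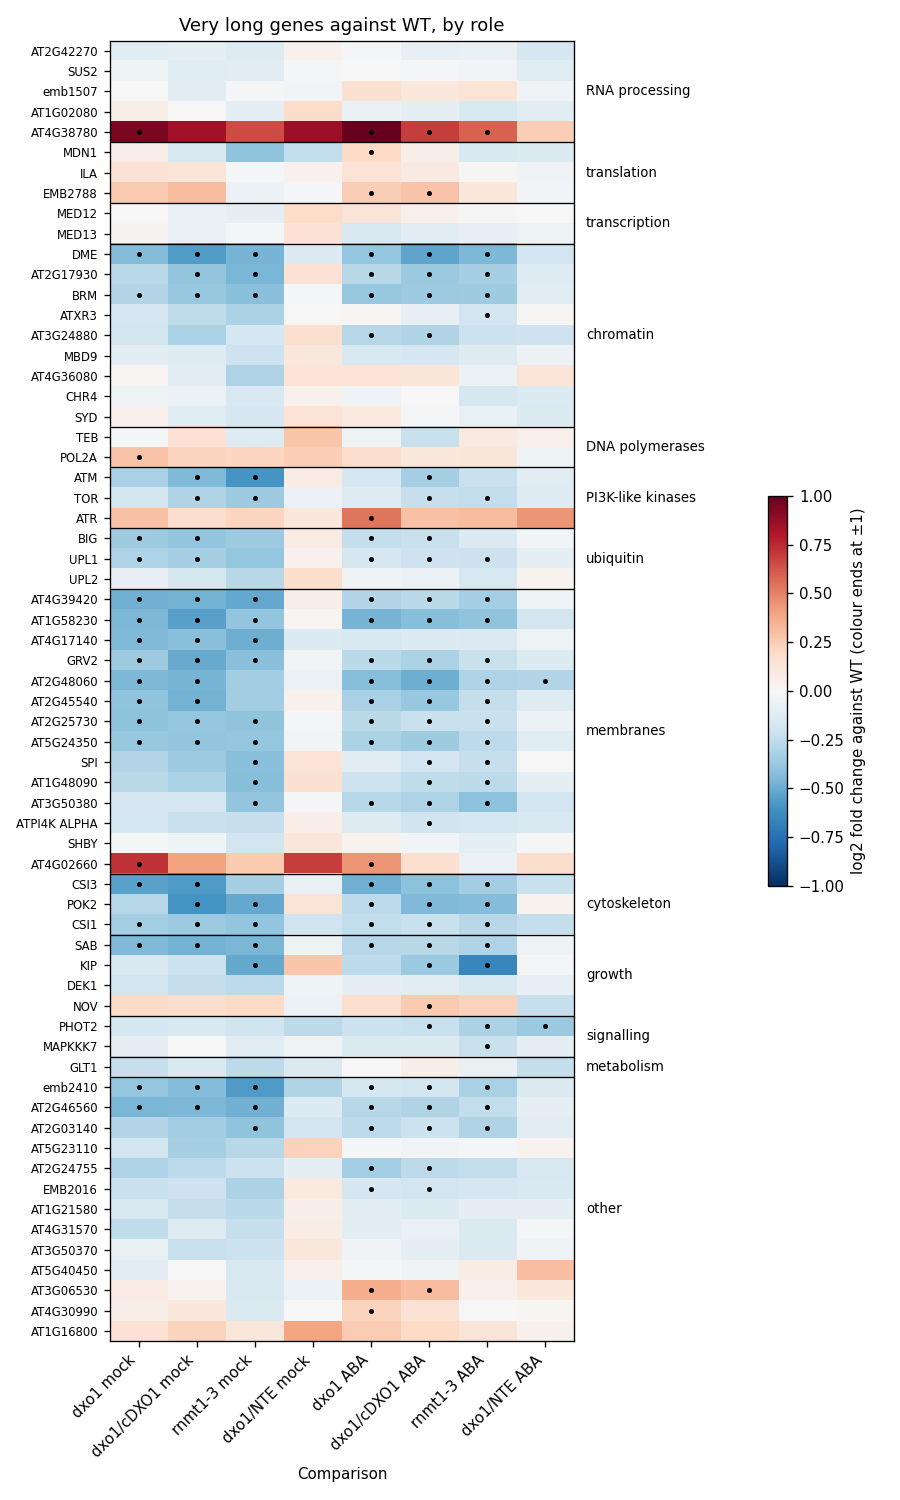
Heat map of the log2 fold change against WT of 64 of the 66 very long genes (lines, grouped by role) in the 8 comparisons, mock on the left and ABA on the right, with colour ending at ±1 and a dot where edgeR's adjusted p was under 0.05. Blue prevails in the columns of the capping mutants, and the mock dxo1/NTE column holds no dot for the genes drawn.

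After ABA more members passed, as did more genes overall. In dxo1 24 members were lower and 8 higher than in WT, where 21.2% of all tested genes were lower and 22.6% higher. In dxo1/cDXO1 31 were lower and 5 higher, against 21.8% and 23.6% of all genes. In rnmt1-3 27 were lower and 2 higher, against 16.6% and 19.7% of all genes. As shares of the 66 the lower calls were 36.4%, 47.0% and 40.9%, again above the background. The medians of -0.13, -0.15 and -0.16 were nearer to 0 than under mock, and the remaining genes had medians of -0.00, -0.01 and -0.01. In dxo1/NTE 3 members were lower and 1 higher, against 3.38% and 4.62% of all genes, with a median of -0.09.

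Leaving out libraries moved the counts after ABA less. In dxo1 they stayed between 22 and 35, where 34.8% to 43.9% of all genes were called. In dxo1/cDXO1 the 36 calls became 22 without its replicate 1, 20 without its replicate 2 and 22 without WT replicate 3, against 36.7%, 37.2% and 36.6% of all genes, and in rnmt1-3 the 29 calls became 18 without its replicate 1 and 18 without WT replicate 3, against 27.6% and 26.9%. Lower calls outnumbered higher ones in all of these fits of the capping mutants. The 4 calls in dxo1/NTE became 2 without its replicate 1 and 2 without WT replicate 3, against 3.40% and 2.77%.

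Of the 14 membrane genes 8, 11 and 10 were lower in dxo1, dxo1/cDXO1 and rnmt1-3 and 1, 0 and 0 higher, with median log2 fold changes of -0.27, -0.26 and -0.24. All 3 cytoskeleton genes were lower in each of the 3, with medians of -0.26, -0.41 and -0.35, and 4 of the 9 chromatin genes in each. Of all tested genes 21.2%, 21.8% and 16.6% were lower in these 3 comparisons, and 22.6%, 23.6% and 19.7% higher. DME changed by -0.39, -0.53 and -0.45 and BRM by -0.38, -0.37 and -0.35. AT2G48060, annotated as a piezo-type ion channel component, was lower in all 4 genotypes, by -0.43, -0.49 and -0.31 in the capping mutants and by -0.30 in dxo1/NTE. The blue light receptor PHOT2 was also lower in dxo1/NTE, at -0.37.

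Of the 3 translation genes 2 were higher in dxo1 after ABA, where 22.6% of all tested genes were higher. MDN1 was higher by 0.20 ± 0.06 and EMB2788, annotated as a ribosome biogenesis protein, by 0.25 ± 0.09 (edgeR adjusted p = 0.017 and 0.034). In dxo1/cDXO1 EMB2788 was higher by 0.29 and MDN1 had 0.06 without a call, and neither was called in rnmt1-3. AT4G38780 had 8.04, 7.60 and 8.29 CPM in ABA-treated dxo1, against 3.58, 4.06 and 4.28 CPM in WT. The groups did not overlap, and the log2 fold change was 1.04 ± 0.15 (adjusted p = 0.00013). It was 0.695 in dxo1/cDXO1 and 0.59 in rnmt1-3, both called, and 0.25 in dxo1/NTE, not called.

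The study's own thresholds for differentially expressed genes, an unadjusted p under 0.05 with an absolute log2 fold change over 1, were passed by few members. In mock dxo1, dxo1/cDXO1, rnmt1-3 and dxo1/NTE 1 member each passed, where 7.20%, 7.40%, 5.88% and 2.41% of all tested genes did. After ABA 2 passed in dxo1, among them AT4G38780, and 1 each in dxo1/cDXO1, rnmt1-3 and dxo1/NTE, where the backgrounds were 7.33%, 8.00%, 5.68% and 1.73%.

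The response to ABA within a genotype leaned to the lower side in dxo1/NTE but, with TMM scaling, not in the capping mutants. In dxo1 10 members were higher and 7 lower after ABA than under mock, where 14.1% of all tested genes were higher and 11.8% lower. In dxo1/cDXO1 7 were higher and 6 lower, against 13.6% and 10.9%, and in rnmt1-3 11 were higher and 4 lower, against 14.7% and 11.4%. In WT 2 were higher and 3 lower, against 10.05% and 6.47%, and in dxo1/NTE 2 were higher and 11 lower (3.03% and 16.7% of 66), against 15.4% and 13.4%. A negative response was found for 55 of the 66 members in dxo1/NTE and for 22, 20 and 17 in dxo1, dxo1/cDXO1 and rnmt1-3, with 26 in WT. The medians were 0.06, 0.07, 0.09 and -0.13 in dxo1, dxo1/cDXO1, rnmt1-3 and dxo1/NTE and 0.02 in WT.

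These splits depended on the scaling. With library totals in place of TMM, the share of higher calls was 42.9% for dxo1, 28.6% for dxo1/cDXO1 and 54.5% for rnmt1-3, against 58.8%, 53.8% and 73.3% with TMM. The counts also rested on single libraries. The 17 calls in dxo1 became 10 without ABA replicate 2, where 20.2% of all genes were called. The 13 in dxo1/cDXO1 became 6 without ABA replicate 2, 8 without mock replicate 2 and 24 without mock replicate 3. Of all genes 19.2%, 20.4% and 24% were called in these fits. The 15 in rnmt1-3 became 9 without ABA replicate 2, 8 without ABA replicate 3 and 25 without mock replicate 3. Here 21.8%, 21.6% and 24.5% of all genes were called. The 5 in WT became 3 without ABA replicate 3, 3 without mock replicate 3 and 9 without mock replicate 1. The shares of all genes were 9.48%, 12.4% and 25%. The 13 in dxo1/NTE stayed between 10 and 15, against 22.5% to 27.9% of all genes. The lean of dxo1/NTE to the lower side was weaker without single libraries. Its median of -0.13 became -0.06 without mock replicate 2, with 44 members negative. Without ABA replicate 3 it became -0.07, with 49 negative.

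AT5G40450 had the largest response. It had 215, 207 and 229 CPM after ABA in dxo1, against 475, 487 and 546 CPM under mock, and 249, 189 and 236 CPM after ABA in WT, against 517, 547 and 527 CPM under mock. The treatments did not overlap in any genotype. Its response was -1.16 ± 0.06 for dxo1, -1.29 ± 0.08 for dxo1/cDXO1, -1.01 ± 0.06 for rnmt1-3, -0.99 ± 0.13 for dxo1/NTE and -1.23 ± 0.13 for WT on the log2 scale (edgeR adjusted p = 2.7e-10, 4.5e-09, 3e-09, 3.2e-05 and 0.00031). It was the 1 member past the study's thresholds in dxo1, dxo1/cDXO1, rnmt1-3 and WT, where 7.07%, 7.34%, 7.79% and 9.70% of all tested genes passed, and no member passed in dxo1/NTE, where 8.57% of genes did.

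AT3G50380, a putative vacuolar sorting protein, had the largest higher response. In WT it had 89.0, 95.6 and 99.7 CPM after ABA, against 53.5, 60.6 and 56.7 CPM under mock, with no overlap. On the log2 scale it responded by 0.60 for dxo1, 0.59 for dxo1/cDXO1, 0.71 for rnmt1-3, 0.56 for dxo1/NTE and 0.74 for WT, all called. CSI3 was lower after ABA in all genotypes, by -0.66, -0.57, -0.74 and -0.86 in dxo1, dxo1/cDXO1, rnmt1-3 and dxo1/NTE and by -0.70 in WT. The ARM repeat protein AT3G06530 was also lower in each, by -0.20, -0.23, -0.28, -0.32 and -0.47 in the same order. GLT1 was lower in the 4 mutant or transgenic genotypes, by -0.23, -0.26, -0.28 and -0.55. In WT its value of -0.45 ± 0.15 missed the threshold (edgeR adjusted p = 0.077), with mock replicate 1 at 2465 CPM and the other 2 mock libraries at 1996 and 1969 CPM.

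**Figure D5:**
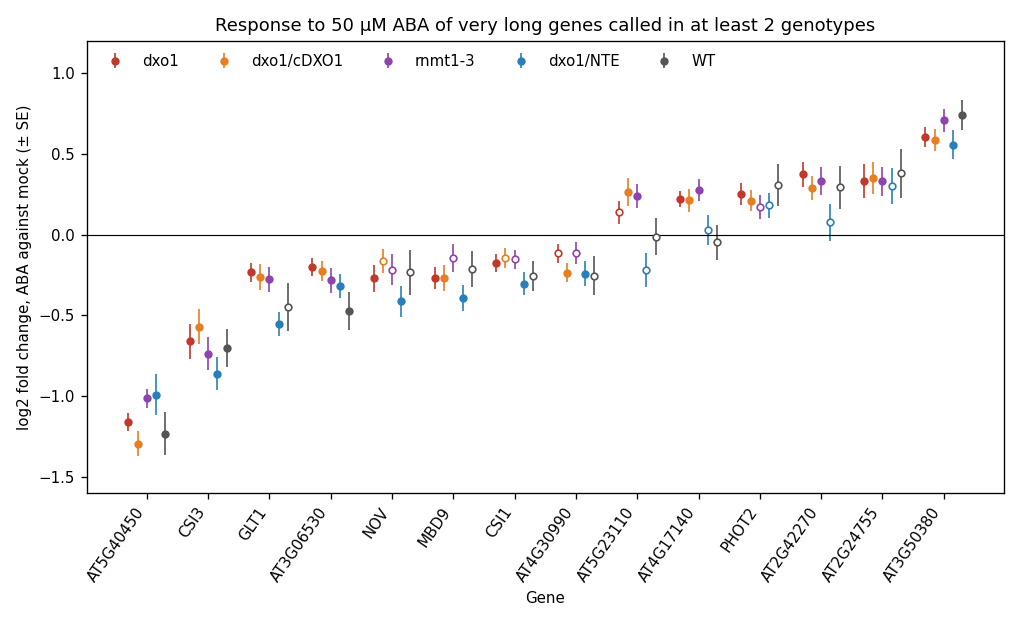
Log2 fold change of ABA against mock (± SE) for 14 very long genes called in at least 2 genotypes, with a colour for each genotype and filled symbols where edgeR's adjusted p was under 0.05. AT5G40450 lies between -0.99 and -1.29, and AT3G50380 between 0.56 and 0.74, in every genotype.

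No member passed the test of whether the ABA response differed between a genotype and WT. In the edgeR interaction fits 0 of 66 members passed for dxo1, dxo1/cDXO1, rnmt1-3 and dxo1/NTE, where 0.272%, 0.233%, 0.126% and 0% of all tested genes did. DESeq2 also called 0 members, and the members with an unadjusted p under 0.05 in edgeR numbered 2, 0, 1 and 3. The lowest adjusted p among the members was 0.393, 0.549, 0.585 and 0.355. AT4G17140 was higher after ABA by 0.22, 0.21 and 0.28 in dxo1, dxo1/cDXO1 and rnmt1-3, all called, while WT had -0.05 without a call. Its interaction was 0.30 ± 0.11 for dxo1, 0.26 ± 0.13 for dxo1/cDXO1 and 0.34 ± 0.13 for rnmt1-3, which did not pass.

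The comparison of dxo1/NTE with dxo1 asks what the N-terminal extension does in the mutant. Under mock conditions 28 members were higher and 4 lower in dxo1/NTE than in dxo1, where 14.8% of all tested genes were higher and 17.8% lower. The median log2 fold change was 0.19. By role, 11 of 14 membrane genes, 5 of 9 chromatin genes and 3 of 3 ubiquitin genes were higher. AT4G39420, whose libraries are given above, was higher by 0.54 ± 0.07 (edgeR adjusted p = 0.00017), AT1G58230 by 0.47, CSI3 by 0.46, BIG by 0.44 and KIP by 0.43. The lower members included MDN1 at -0.31, EMB2788 at -0.27 and NOV, a nuclear protein of vascular development, at -0.25. This comparison uses the same dxo1 libraries as that of dxo1 with WT.

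After ABA 12 members were higher and 12 lower in dxo1/NTE than in dxo1, against 17.2% and 18.6% of all tested genes, and the median was 0.05. BRM at 0.26, SAB at 0.24 and AT4G39420 at 0.26 were higher, and all 3 translation genes were lower, MDN1 at -0.34, EMB2788 at -0.27 and ILA, a regulator of translation, at -0.17. AT4G38780 was lower by -0.79 ± 0.15 (edgeR adjusted p = 0.00080). The 32 calls under mock were 22, 17 and 30 without replicate 1, 2 or 3 of both groups, against 21%, 18.3% and 25.5% of all genes. They split into 21 higher and 1 lower, 15 and 2, and 29 and 1, and the member medians were 0.21, 0.08 and 0.26. The 24 calls after ABA were 8, 10 and 29, against 24.3%, 23.7% and 32.5% of all genes. In the length classes the mock medians of dxo1/NTE against dxo1 were -0.13, -0.03, 0.04, 0.12, 0.18 and 0.19, in order of length.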

How the data were processed

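The authors sequenced poly(A)-enriched RNA of 30 seedling samples, 3 replicates per group, which the study describes as biological. Per the labels the reads were checked with FastQC 0.11.8, aligned to TAIR10 with HISAT2 2.2.1 and counted per gene with featureCounts of Subread 2.0.8. The annotation release and strand setting are not given in the sources used here. The deposited table holds raw whole-number counts per gene and a gene length, with library totals of 17961410 to 23249299.

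CPM were computed from library totals and TPM from counts and lengths. The very long genes and the role lists were chosen with earlier results of these data known. Tests used edgeR 4.0.16 (R 4.3.3; quasi-likelihood, TMM, filterByExpr, Benjamini-Hochberg over all genes tested) on the 6 libraries of a comparison, or 12 for an interaction, and were checked on simulated counts. A gene is called at an adjusted p under 0.05. DESeq2 1.42.0, other scalings, filters, a fit over all 30 libraries, other length and CPM limits, a replicate block and left-out libraries were the alternatives. Genes were named if among the longest or highest, past the study's thresholds, among the largest changes of a role or of a comparison with non-overlapping groups, or called alike in the capping mutants; genes outside this rule (MED12, MED13, SPI, ATR and the paralogues) were named after their values were seen. Annotation, gene starts and sequences are RefSeq's for TAIR10.1, in which all 66 members were found. Some results on single genes and sequences are not reported here, while counts and medians over the very long genes include all 66.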

Additional observations from a re-analysis of the deposited data

How the results depend on the processing

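No called member changed direction under any alternative. Of the called values of single members, 276 stayed called and 12 were lost with DESeq2, 282 and 6 with DESeq2's size factors in edgeR, 269 and 19 with library totals, 280 and 8 without the filter on low counts, and 237 and 51 in the fit over all 30 libraries. Left-out libraries or replicates kept 1054 calls and lost 506. Replicate numbers were not used as a block in the main fits. In no comparison were all 3 same-number correlations over 0.1, and their mean per comparison ranged from -0.022 to 0.14. Whether libraries of the same number share a batch was not tested. With a replicate block 265 calls stayed and 23 were lost. The count was then 12 in mock rnmt1-3 (22 without the block), 7 in ABA-treated dxo1/NTE (4) and 20 for the ABA response of dxo1/cDXO1 (13).

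In the fit over all 30 libraries the counts were 37 in mock dxo1/cDXO1, 41 in mock rnmt1-3, 9 in mock dxo1/NTE (55.6% higher), 6, 8 and 13 for the ABA response of dxo1, dxo1/cDXO1 and WT, and 14 for dxo1/NTE against dxo1 after ABA. With library totals they were 44 in ABA-treated rnmt1-3 and 28 for the ABA response of dxo1/NTE, and the median of all genes moved by -0.12 in ABA-treated dxo1/cDXO1 against WT, by under 0.1 elsewhere. DESeq2 gave 2 in mock and 7 in ABA-treated dxo1/NTE. The share of all genes called under these settings is not given here, so these counts do not set the members apart from other genes. With lengths of 6000 or more mock dxo1/NTE had 1 call of 143 genes, and with 8000 or more it had 0 and ABA-treated dxo1/NTE 1 of 35. The study's thresholds left 1 member in mock dxo1, dxo1/cDXO1 and rnmt1-3, 2 in ABA-treated dxo1, 1 in each other genotype after ABA, and 1 in each ABA response but that of dxo1/NTE, which had 0.

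Leaving out a library or replicate gave 3 to 35 calls in mock dxo1, 2 to 34 in mock dxo1/cDXO1, 2 to 35 in mock rnmt1-3, 1 to 3 in mock dxo1/NTE, 22 to 35 in ABA-treated dxo1, 20 to 34 in dxo1/cDXO1, 18 to 36 in rnmt1-3 and 2 to 6 in dxo1/NTE. For ABA responses the ranges were 10 to 21 in dxo1, 6 to 24 in dxo1/cDXO1, 8 to 25 in rnmt1-3, 10 to 15 in dxo1/NTE and 3 to 9 in WT, and for dxo1/NTE against dxo1 17 to 30 under mock and 8 to 29 after ABA. Such fits have fewer samples, and the share of all genes called moved as well, from 11.3% to 43.7% in mock dxo1. For interactions and dxo1/NTE against dxo1 only whole replicate numbers were left out, and single libraries were not run.

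Reversed member medians were all near 0. The WT response had -0.0042 in the fit over all 30 libraries, and the interactions of dxo1 and dxo1/cDXO1 had -0.011 and -0.0076 with library totals. Over left-out libraries or replicates the median ranged over -0.047 to 0.080 in mock dxo1/NTE, -0.021 to 0.099, -0.037 to 0.112 and -0.045 to 0.177 for the interactions of dxo1, dxo1/cDXO1 and rnmt1-3, and -0.0027 to 0.105 for dxo1/NTE against dxo1 after ABA. The cause was not tested. Depth limits the low members most, such as AT4G38780 at a mean of 5.99 CPM.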

Other observations

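Several members have a homologue in the set. SUS2 averaged 79.8 TPM and its second copy AT4G38780 1.38 TPM, and emb1507 (a U5 snRNP helicase) 68.9 TPM and its copy AT2G42270 10.1 TPM. Neither pair shared a 75-base exon window. SUS2 had log2 fold changes against mock WT of -0.04, -0.12 and -0.11 in dxo1, dxo1/cDXO1 and rnmt1-3 and no call, where AT4G38780 had 0.94, 0.84 and 0.65. AT2G42270 was higher after ABA in dxo1, dxo1/cDXO1 and rnmt1-3, by 0.37, 0.29 and 0.33, where emb1507 had 0.05, 0.10 and 0.05 and no call. UPL1 was lower in mock dxo1 and dxo1/cDXO1, by -0.31 and -0.33, where UPL2 had -0.08 and -0.17 and no call; 4.47% of the UPL1 windows occurred in UPL2. Whether the members of a pair differ was not tested.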
